A study of Mus musculus with 6 samples.

Results

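The 3 genes of the Spi subfamily of Ets transcription factors, Spic, Spib and Spi1, were followed in J1 mouse embryonic stem cells kept with or without the receptor inhibitor SB431542. They were found as the non-control probes whose RefSeq accession maps to one of the 3 names, which gave 3 probes of 55681 and 3 genes of 20667 with a symbol. Each gene had 1 probe. These are probe A_51_P389885 for Spic (NM_011461), probe A_55_P2113703 for Spib (NM_019866) and probe A_52_P498086 for Spi1 (NM_011355). The group was chosen by the SB431542 against DMSO difference of Spic in these same arrays, so the levels of the 3 genes are given as a description, with no test.

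Total RNA was hybridised to 6 Agilent 1-colour arrays, 3 of cells held with the solvent DMSO and 3 of cells held with 3 µM SB431542, each for 24 h. Cells of both groups were of the J1 line, which comes from the inner cell mass of strain 129S4/SvJae, and were grown feeder-free on gelatin in serum replacement medium with 1000 U/ml LIF, a cytokine that maintains self-renewal. SB431542 blocks the type I receptors of Nodal, activin and TGF-beta, and the comparison asks which transcripts differ when these receptors are inhibited. J1 is a single line. Since separate cultures are not stated for the replicates, every p-value reflects only how far these particular samples spread, and that spread could be technical.

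Ets factors share a winged-helix domain that reads a short DNA core, GGAA, and the Spi subfamily prefers purine-rich sites known as PU boxes. Spi1 encodes PU.1, which directs the myeloid and B cell lineages, and Spib encodes Spi-B, which acts in B cells and plasmacytoid dendritic cells. Spic encodes Spi-C, known from iron-recycling red pulp macrophages of the spleen, where haem releases it from the repressor Bach1, and from mouse embryonic stem cells, where it has been linked to genes of betaine and one-carbon metabolism.

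The promoters of Spic and Spib are shown because they are the DNA just upstream of the member that differed most and of the member that differed little, and that of Bhmt because it is a betaine gene described further on. Each is the 250 bases before the RefSeq start on assembly GRCm38.p6, 5′ to 3′ on the strand of the gene, and capitals mark every Ets core (GGAA, or TTCC for the other strand). They are Spic at chr10:88683024-88683273, Spib at chr7:44532072-44532321 and Bhmt at chr13:93637759-93638008, all on the minus strand.
Spic: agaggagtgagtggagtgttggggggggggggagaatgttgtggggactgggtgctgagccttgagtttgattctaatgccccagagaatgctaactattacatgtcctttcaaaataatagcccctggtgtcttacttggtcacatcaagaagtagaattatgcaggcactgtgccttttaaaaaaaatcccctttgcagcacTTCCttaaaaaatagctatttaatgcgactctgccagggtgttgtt
Spib: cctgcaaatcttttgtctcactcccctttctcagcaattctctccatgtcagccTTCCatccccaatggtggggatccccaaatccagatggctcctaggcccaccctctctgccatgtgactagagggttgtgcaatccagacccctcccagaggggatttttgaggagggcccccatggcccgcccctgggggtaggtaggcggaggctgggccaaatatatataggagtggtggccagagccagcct
Bhmt: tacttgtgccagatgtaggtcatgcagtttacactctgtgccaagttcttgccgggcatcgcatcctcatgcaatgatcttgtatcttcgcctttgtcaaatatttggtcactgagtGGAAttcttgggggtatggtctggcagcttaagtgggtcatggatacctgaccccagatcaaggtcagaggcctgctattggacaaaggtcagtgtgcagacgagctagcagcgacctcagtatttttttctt

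Each of the 3 promoters held 1 Ets core. In Spic it lay on the strand opposite the gene, with its first base 46 bases before the start. In Spib it also lay on the opposite strand, 196 bases before the start, and in Bhmt on the gene's own strand, 133 bases before it. The core is common, since 93.4% of 32851 promoters of this length held at least 1 copy on either strand. The longer PU box GAGGAA, which contains the core, was in 23.3% of promoters and had no match in these 3. The Smad box CAGAC, the short motif read by the Smad proteins of the inhibited pathway, was in 42.2% of promoters. It had no match in Spic, 1 in Spib at 111 bases and 2 in Bhmt at 36 and 115 bases before the start. A motif of the kind read by the Smad partner Foxh1, TGTNNATT, was in 10.9% of promoters and in none of the 3. These matches describe letters only, and Spi1 was not among the promoters used here.

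On each array 63.9% to 66.2% of spots were well above background, no spot was saturated (0 on every array), and the 75th percentile of the background-subtracted signal ran from 452 to 564. Embryonic stem cell identity was checked on 12 markers, all of which were well above background. The defining genes Pou5f1 (-0.29 ± 0.14 SE on the log2 scale), Sox2 (0.03 ± 0.05) and Nanog (-0.02 ± 0.06) did not pass the test, although Pou5f1 did without SB431542 replicate 2 (-0.44, limma adjusted p = 0.0309). 4 markers fell, the Nodal co-receptor gene Tdgf1 (-1.04 ± 0.08), Dppa5a (-0.49 ± 0.07), Utf1 (-0.42 ± 0.06) and Fgf4 (-0.37 ± 0.05), and none rose, where of all 25898 features tested 7.37% fell and 5.16% rose. All arrays lay on 1 slide except SB431542 replicate 3, which was on a second slide with another scan.

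Spic was measured on all 6 arrays and was far brighter in the cells with SB431542. Its background-subtracted signal was 175, 185 and 195 in DMSO replicates 1, 2 and 3. With SB431542 it was 839, 684 and 853. The groups were far apart, and the lower signal of SB431542 replicate 2 went with that array's lower overall brightness. Relative to the 75th percentile of each array, Spic stood at 32.5%, 34.8% and 36.5% in DMSO and at 164%, 151% and 151% with SB431542.

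The mean log2 level of Spic relative to the 75th percentile was -1.53 ± 0.08 (SD, n = 3) in DMSO and 0.64 ± 0.07 (SD, n = 3) with SB431542. The difference was 2.17 ± 0.07 (SE), or 4.50-fold. Even the lowest SB431542 array exceeded the highest DMSO array by 4.15-fold, and the 9 differences between single arrays ran from 2.05 to 2.34. In this bulk RNA, fewer or more cells with Spic transcript and less or more transcript per cell cannot be told apart. Leaving out each array in turn gave 2.12 to 2.21, and slide 1 alone gave 2.19. The authors' deposited log2 table gave 2.09, and normexp background correction gave 1.87.

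**Figure D1:**
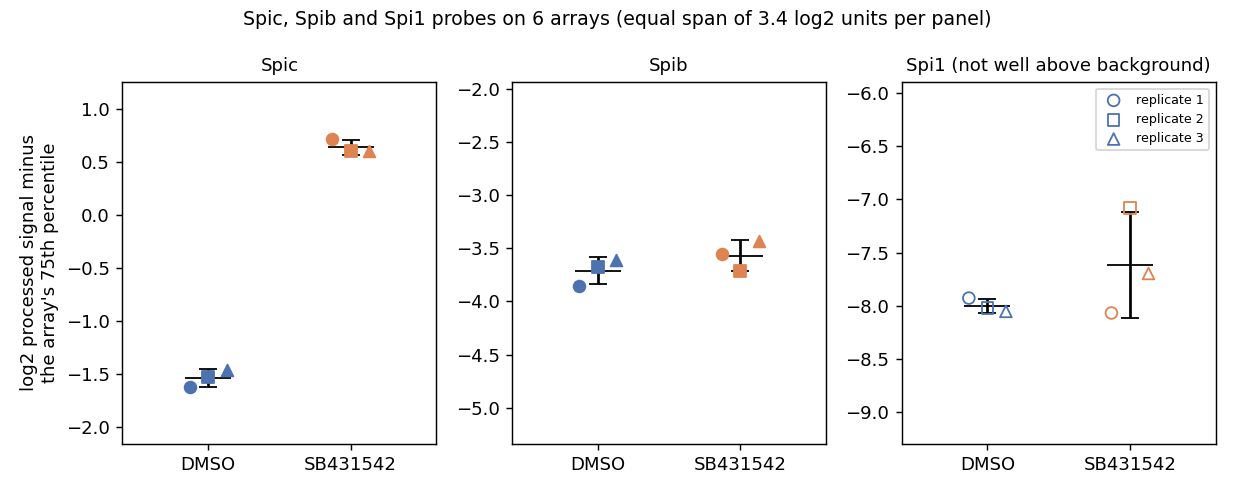
Level of Spic, Spib and Spi1 on each of the 6 arrays, as log2 of the processed signal minus the array's 75th percentile, for 3 DMSO and 3 SB431542 arrays; points are arrays, long bars group means and whiskers 1 SD, and each panel has its own range of equal span. The Spic points lie at -1.62 to -1.46 in DMSO and at 0.60 to 0.72 with SB431542, while those of Spib overlap and those of Spi1 were not well above background in either group.

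Among all features Spic stood near the top of the differences. Of 25898 features, 9 (0.0348%) were at least 4-fold higher with SB431542, and 124 (0.479%) at least 2-fold. Spic ranked 1 of the 14852 genes with a symbol that were well above background on every array, ahead of Asb9 (2.04), Ntn1 (2.02) and Ackr4 (1.86). Tmem255a and Slc6a14 had larger measured differences than Spic. In DMSO, they and Plxna4 were not well above background, so the place of Spic among all 15647 genes with a symbol is not settled. Every SB431542 array lay above every DMSO array, as for Spic, in 18.6% of features, and below every DMSO array in 17.3% (35.9% together), so separation alone was common here. The SD of Spic between replicates was 0.08 in DMSO and 0.07 with SB431542, and the median SD over features was 0.07 and 0.12.

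Spib, the Spi-B gene, was measured on all 6 arrays as well, but without separation of the groups. Its signal was 37.4, 41.6 and 43.8 in DMSO and 43.5, 34.4 and 52.2 with SB431542. The lowest and the highest of the 6 signals were both SB431542 arrays, while after scaling DMSO replicate 1 was lowest and SB431542 replicate 3 highest. Relative to the 75th percentile the mean log2 level was -3.71 ± 0.13 (SD, n = 3) in DMSO and -3.57 ± 0.14 (SD, n = 3) with SB431542. The difference of 0.14 ± 0.10 (SE) is 1.10-fold and lies within the overlap of the groups, and 75.3% of genes with a symbol had a smaller signed difference. It ran from 0.07 to 0.22 over 16 alternative settings.

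Spi1, the PU.1 gene, was not well above background in either group. Its signal was 2.21, 2.05 and 2.01 in DMSO and 1.90, 3.34 and 2.72 with SB431542, so only an upper bound on its level is known and no fold is given. The filter on dim probes thus kept 2 of the 3 members.

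The wider Ets family was taken from a list of 24 other Ets genes, of which 20 could be tested. By limma's adjusted p under 0.05, 4 rose and 1 fell and 15 did not pass, beside 12.5% of all 25898 features that changed, 5.16% that rose and 7.37% that fell. The 3245 features that changed became 1616, 1456 and 1551 without DMSO replicates 1, 2 and 3, and 2161 in the absence of SB431542 replicate 2. The median log2 difference of the Ets list was 0.04, beside 0.02 over all features. Elf3, an epithelial Ets factor, was 441, 445 and 427 in DMSO and 635, 563 and 803 with SB431542, with no overlap. It rose by 0.67 ± 0.07 (limma adjusted p = 0.00379). Elk3, a ternary complex factor that works with the serum response factor, rose by 0.47 ± 0.06 (limma adjusted p = 0.00779), and its other probes gave 0.42 and 0.61. Both calls held under each of the 16 alternative settings.

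The other 3 Ets calls were each lost without some of the arrays. Elf4, known from lymphoid cells, rose by 0.56 ± 0.11 (limma adjusted p = 0.0247), which was lost without DMSO replicate 1 or 2 or SB431542 replicate 1 or 2 (adjusted p 0.0685 to 0.0963). It also moved to 0.21 with normexp correction. Fev, known from serotonergic neurons, rose by 0.23 ± 0.05 (limma adjusted p = 0.0460), which was lost without any 1 of the 6 arrays (0.0719 to 0.160). Etv1 of the PEA3 group was the 1 tested Ets gene that fell, by 0.46 ± 0.07 (limma adjusted p = 0.0115). Its call was lost without DMSO replicate 2 or 3 (0.0554 and 0.0564), and the count of Ets calls dropped from 5 to 2 without DMSO replicate 2. Without DMSO replicate 1 or 3 or SB431542 replicate 1 or 2 that count was 3.

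The other PEA3 genes Etv4 (-0.03 ± 0.10) and Etv5 (0.06 ± 0.06) did not pass, nor did Ets2 (0.01 ± 0.08) or Gabpa (0.10 ± 0.08), whose other probe gave -0.15. Ets1 gave -0.21 ± 0.14 on its brightest probe, -0.07 there without SB431542 replicate 2, and -0.86 on its other probe, and it passed in the mean of the probes (-0.53, limma adjusted p = 0.0152). Erg, Fli1 and Elf5 were not well above background in either group, like Spi1, and Etv3l had no named probe.

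**Figure D2:**
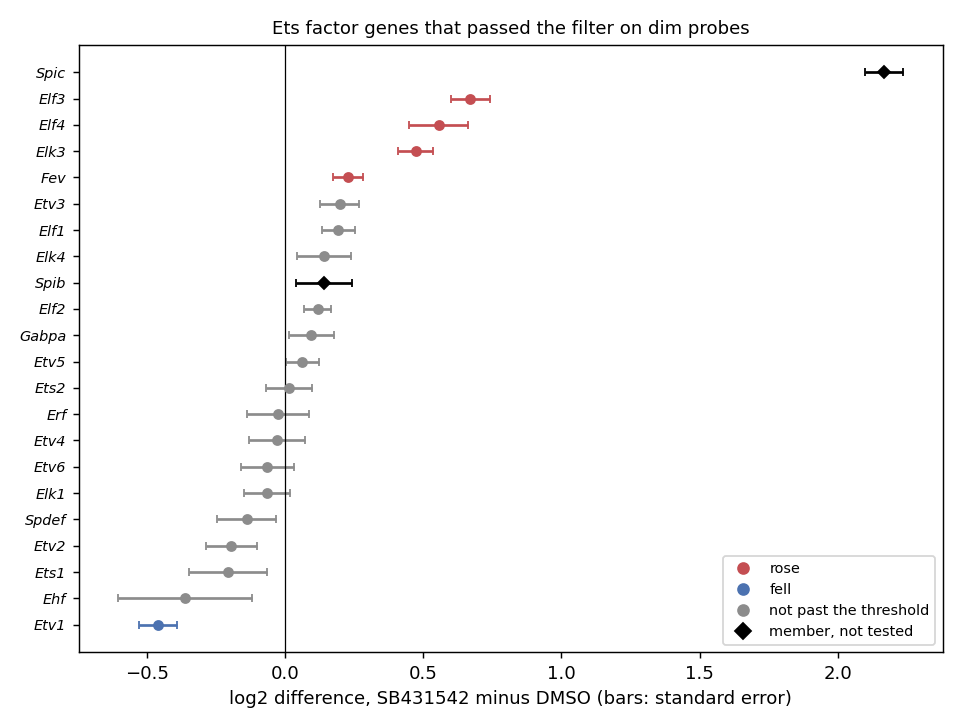
Log2 difference, SB431542 minus DMSO, of Spic, Spib and the other Ets genes tested, with bars of 1 SE from the limma fit (3 arrays per group). Spic is at 2.17 and Spib at 0.14, and the other Ets genes run from -0.46 (Etv1) to 0.67 (Elf3).

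Genes known to work with or regulate Spi factors formed a list of 15, of which 12 were tested, with 2 that rose, 3 that fell and 7 that did not pass, where 12.5% of all features changed. Its median was -0.01. Gata1, the erythroid factor that binds PU.1 and opposes it, was 60.3, 68.0 and 59.6 in DMSO and 128, 123 and 135 with SB431542. It rose by 1.12 ± 0.08 (limma adjusted p = 0.00115), 2.17-fold, under all 16 settings, though by 0.70 with normexp correction. Myb, a factor of blood progenitors, rose by 0.42 ± 0.07 (limma adjusted p = 0.0133), which was lost without DMSO replicate 1 or 3 (0.0569 and 0.0618).

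The interferon regulatory factors Irf4 and Irf8 partner PU.1 and Spi-B on composite DNA sites. Irf4 was not well above background in either group, nor were Ikzf1 and Egr2. Irf8 fell by 0.62 ± 0.12 (limma adjusted p = 0.0226), lost without any 1 DMSO array or SB431542 replicate 3 (0.0569 to 0.0819), and its difference was -0.31 with normexp correction. Runx1, which acts upstream of Spi1 in blood cells, fell by 0.84 ± 0.17 (limma adjusted p = 0.0292), lost without any 1 DMSO array or SB431542 replicate 2 (0.0553 to 0.104), and its difference was -0.50 with normexp correction. Spen, a transcriptional corepressor, fell by 0.33 ± 0.07 (limma adjusted p = 0.0309), lost without any 1 DMSO array or SB431542 replicate 1 or 3 (0.0618 to 0.119). Bach1, the haem-sensing repressor of Spic, had a difference of 0.04 ± 0.08 and did not pass. The count of calls in this list was 2, 2 and 1 without DMSO replicate 1, 2 and 3, and 3 without SB431542 replicate 3.

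One-carbon and betaine metabolism is the group of genes linked to Spi-C in embryonic stem cells. Of 29 genes 26 were tested, 3 rose, 3 fell and 20 did not pass, where 12.5% of all features changed, and the median was -0.00. Bhmt encodes the enzyme that remethylates homocysteine with betaine. Its signal was 38.8, 37.7 and 36.4 in DMSO and 58.9, 47.7 and 55.3 with SB431542, without overlap. It rose by 0.59 ± 0.07 (limma adjusted p = 0.00602) and its other probe gave 1.00. The call held under all 16 settings, with a highest adjusted p of 0.0347 and 0.30 with normexp correction. Its neighbours in the betaine pathway, Bhmt2 and Dmgdh, were not well above background in either group, so their change is not known.

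Tdh, the threonine dehydrogenase on which mouse embryonic stem cells rely, rose by 0.57 ± 0.07 (limma adjusted p = 0.00716) under all 16 settings. Gldc of the glycine cleavage system rose by 0.39 ± 0.06 (limma adjusted p = 0.0149), lost without DMSO replicate 1 or 3 (0.0617 and 0.0653). The mitochondrial folate enzymes Shmt2 (-0.36 ± 0.06, limma adjusted p = 0.0159) and Mthfd2 (-0.49 ± 0.10, limma adjusted p = 0.0320) fell. Shmt2 was lost without any 1 DMSO array (0.0662 to 0.0715), and Mthfd2 without any 1 DMSO array or SB431542 replicate 1 or 3 (0.0649 to 0.117). The list had 2, 3 and 2 calls without DMSO replicates 1, 2 and 3.

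**Figure D3:**
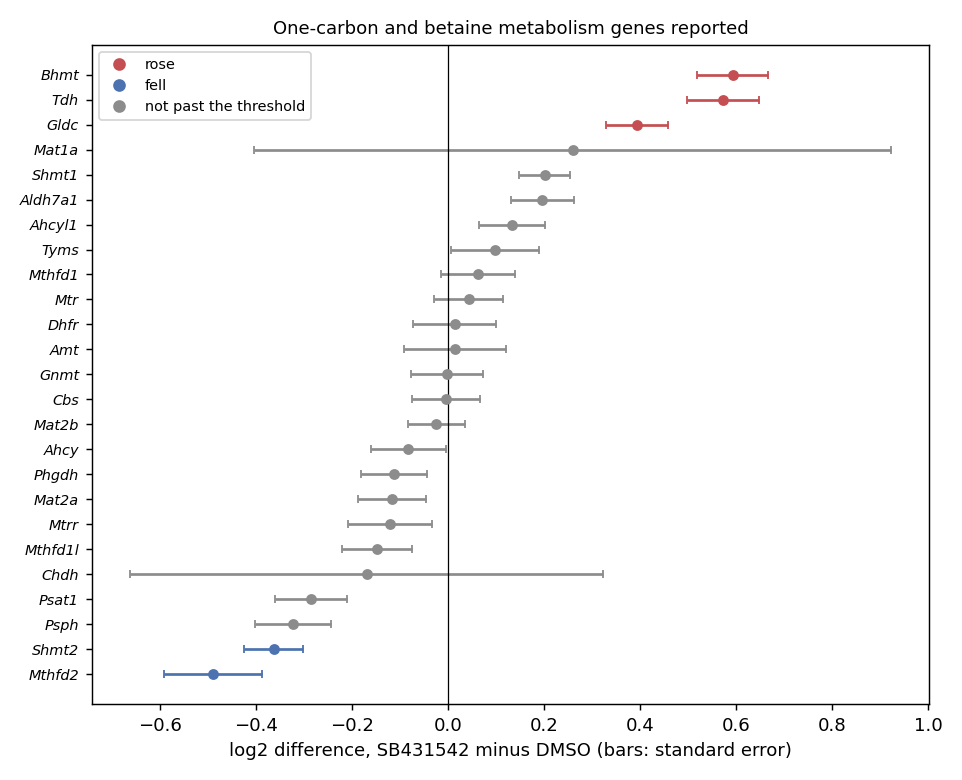
Log2 difference, SB431542 minus DMSO, of tested genes of one-carbon and betaine metabolism, with bars of 1 SE from the limma fit (3 arrays per group). Bhmt (0.59), Tdh (0.57) and Gldc (0.39) were the 3 that rose, and Mthfd2 (-0.49) and Shmt2 (-0.36) were among those that fell.

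A list of 21 genes was drawn up around haem and iron handling, the work of the red pulp macrophages that need Spi-C. It also holds genes that do not handle haem or iron themselves, Nqo1 and Cd47 among them. Of the list 18 genes were tested, with 2 that rose and 2 that fell, where 12.5% of all features changed. The median was -0.01. Nqo1, an oxidative stress enzyme, rose by 0.43 ± 0.05 (limma adjusted p = 0.00464), and Slc11a1, a phagosomal metal transporter, fell by 0.72 ± 0.08 (limma adjusted p = 0.00443), both under all 16 settings. With normexp correction the difference of Slc11a1 was -0.43. The ferritin gene Fth1 rose by 0.21 ± 0.05 (limma adjusted p = 0.0459) and Cd47, the signal that restrains engulfment, fell by 0.25 ± 0.05 (limma adjusted p = 0.0362). Each was lost without any 1 of the 6 arrays (0.0692 to 0.169 for Fth1 and 0.0593 to 0.137 for Cd47), and the list had 2 calls without each DMSO array or SB431542 replicate 2 or 3.

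Hmox1, the haem oxygenase, was 5977, 5675 and 4543 in DMSO and 5570, 1415 and 2993 with SB431542. The groups overlapped through SB431542 replicate 1, and the difference of -0.82 ± 0.44 did not pass (limma adjusted p = 0.289), but without that array it was -1.30 (0.0457) and without SB431542 replicate 2 it was -0.40. The iron exporter gene Slc40a1 (-0.19 ± 0.11, but -0.06 with normexp correction and -0.12 without DMSO replicate 3) did not pass, and Vcam1 and Cd163, surface genes of red pulp macrophages, were not well above background in either group.

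Markers of the blood cells that usually express Spi factors were described next. Of 20 macrophage and myeloid markers, 11 were tested, 0 rose and 1 fell by limma, where 5.16% of all features rose and 7.37% fell, with 3 at an unadjusted p under 0.05 and a median of 0.01. The one that fell was Cd14, by -0.58 ± 0.07 (limma adjusted p = 0.00534) under all 16 settings. Lyz2, Cx3cr1, Mpo and Cd33 were not well above background in either group, and Ptprc, Tyrobp, Fcgr1 and Aif1 passed on only 1 or 2 arrays, too few to be tested. The defining genes Csf1r (0.23 ± 0.11), Itgam (0.04 ± 0.06) and Adgre1 (-0.57 ± 0.20) were measured and did not pass. The other probes gave -0.00 and 0.23 for Csf1r and 0.17 and 0.38 for Itgam. Csf1r was at 0.12 without SB431542 replicate 3, and Adgre1 at -0.36 without SB431542 replicate 2 and at -0.07 with normexp correction. Summed over the list, the level was 119.7 to 126.2 times the 75th percentile in DMSO and 121.6 to 128.6 times with SB431542. The probe of Csf3r alone, a receptor gene, gave 99.9 to 108 of it. The other probes summed to 19.7 to 20.4 times in DMSO and 19.7 to 21.6 times with SB431542. The part of blood cells in the Spic difference was not tested.

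Of 15 B cell and plasmacytoid markers, 8 were tested, 1 rose and 1 fell, where 12.5% of all features changed, and the median was -0.05. Ebf1, a B lineage factor that other cells also express, was 251, 234 and 253 in DMSO and 64.9, 49.1 and 59.8 with SB431542. It fell by 2.01 ± 0.09 (limma adjusted p = 0.000247), 4.04-fold, under all 16 settings, with a difference of -1.30 after normexp correction. Cd79b, part of the B cell receptor, rose by 0.28 ± 0.06 (limma adjusted p = 0.0340), lost without any 1 DMSO array or SB431542 replicate 1 or 2 (0.0810 to 0.121), which left 1 call in the list without DMSO replicate 2 or 3 or SB431542 replicate 1 or 2. Ms4a1, Pax5, Il7r, Btk and Pou2af1 were not well above background in either group, and Blk passed on too few arrays to be tested. The summed level was 195 to 206 times the 75th percentile in DMSO and 190 to 204 times with SB431542. The probe of Siglech alone, a lectin gene of plasmacytoid dendritic cells, gave 164 to 178 of it, and the other probes summed to 27.3 to 29.5 times in DMSO and 25.9 to 30.2 times with SB431542.

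The cells were grown without feeders, and of 10 fibroblast markers 8 were tested. Of these 1 rose and 2 fell, where 5.16% of all features rose and 7.37% fell. Col1a2 fell by 1.05 ± 0.12, Dcn fell at least 1.85-fold and Pdgfra rose by 0.34 ± 0.05 (0.22 with normexp correction). Dcn was well above background on all 3 DMSO arrays and on none with SB431542. It passed the filter through the DMSO arrays alone, so its fall is given as a bound and its call is not support for it. The calls of Dcn and Pdgfra were lost without DMSO replicate 1 or 2, which left 1 call, and that of Dcn also without DMSO replicate 3 or SB431542 replicate 1 (limma adjusted p 0.0513 to 0.102 for Dcn and 0.0567 to 0.0632 for Pdgfra).

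The protein-coding genes beside Spic on its chromosome were compared with it, 4 on either side in the order of the RefSeq table. Non-coding genes and genes with only a provisional name (Gm, LOC or Rik) were left out. Places from Spic are counted among the genes that remained. Chpt1, which encodes a choline phosphotransferase and lies 2 places from Spic, was the one that passed, where 12.5% of all features changed. It was 705, 680 and 726 in DMSO and 952, 801 and 1159 with SB431542, without overlap, as in 35.9% of all features. It rose by 0.53 ± 0.07 (limma adjusted p = 0.00839), 1.44-fold, its other probe gave 1.07 and the mean of the probes 0.80. Nearer to Spic, Mybpc1 (0.15 ± 0.13) and Arl1 (0.11 ± 0.06) did not pass. Gnptab (-0.15 ± 0.11), Sycp3 (0.11 ± 0.06) and Utp20 (0.05 ± 0.06) did not pass either. Slc5a8 was not well above background in either group, and Ano4 had no named probe.

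**Figure D4:**
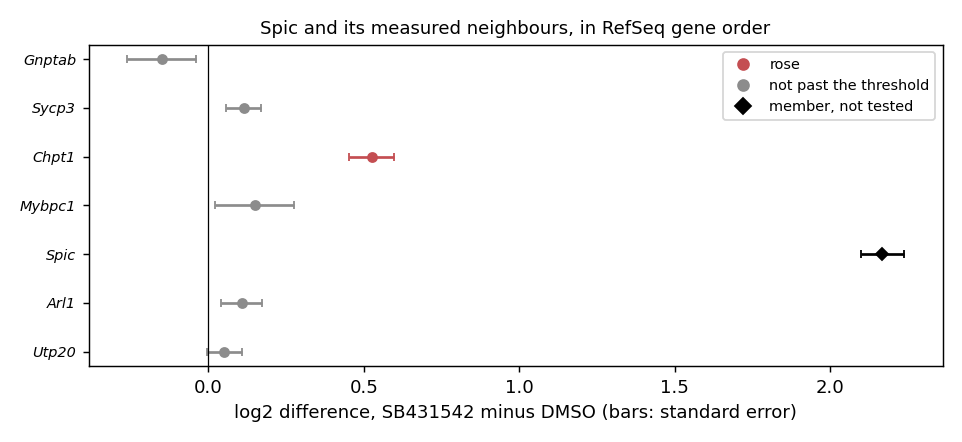
Log2 difference, SB431542 minus DMSO, of Spic and the measured protein-coding genes on either side of it in RefSeq order, provisional names left out, with bars of 1 SE from the limma fit (3 arrays per group). Spic is at 2.17 and Chpt1 at 0.53, and the other neighbours lie between -0.15 and 0.15.

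Some genes had a profile across the arrays much like that of Spic. Likeness was the root mean square difference between 2 genes over the 6 arrays, each taken relative to its own DMSO mean on the log2 scale, among 14851 genes well above background on every array. Asb9, an adaptor of ubiquitin ligases, was nearest at 0.12. Its signal was 101, 101 and 92.9 in DMSO and 423, 326 and 411 with SB431542. The guidance cue gene Ntn1 (0.16) and the atypical chemokine receptor gene Ackr4 (0.23) followed. Next came the scaffold gene Pdzk1 (0.30) and the receptor-modifying gene Ramp2 (0.31), then Gm9112 (0.43), Unc93a (0.44) and Neurog3 (0.44). Their group differences ran from 1.55 for Neurog3 to 2.04 for Asb9. These likenesses rest on 6 arrays and on the group difference that also singled out Spic, and they are given as a description.

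**Figure D5:**
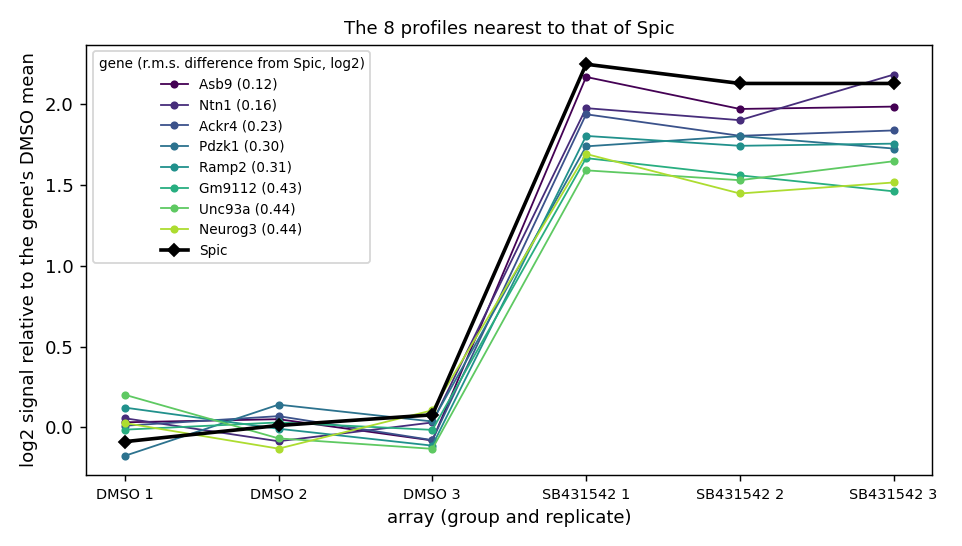
Log2 level relative to each gene's own DMSO mean on the 6 arrays for Spic and the 8 genes nearest to it; each line is 1 gene. The DMSO values lie near 0 and the SB431542 values lie well above them, and the group difference is 2.17 for Spic and 1.55 to 2.04 for the 8 genes.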

How the data were processed

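Groups and replicate numbers came from the sample titles. The deposited scanner files hold intensity values per spot, background-subtracted and detrended by Agilent Feature Extraction (version 10.7, per the submitters' processing notes), with flags that are a score of 0 or 1, per the file headers. The authors also deposited a log2 table of the same arrays, used as an alternative. How it was normalized was not given in the sources used here. Its columns shared a median of 5.18 and an upper quartile of 8.90 and correlated with their own array's log2 signal at 0.99988 or above.

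Each array had 62976 spots, 59305 of them not controls. Outlier spots were dropped, which removed 81 of 55681 probes, and the remaining spots were averaged by probe. Accessions were matched to RefSeq genes of GRCm38.p6, which named 27235 probes. A further 13 carried a symbol in the file and 28433 stayed without one. The array grid is of mm9, so probes are given no positions. Values are log2 signal minus the array's 75th percentile. A probe was kept if 3 or more of the 6 arrays had it well above background (36183 probes), and the brightest probe stood for a gene, which left 25898 features. limma 3.58.1 in R 4.3.3 (lmFit, eBayes; Python 3.11.15 for reading) tested all features, two-sided, with Benjamini-Hochberg adjustment at 0.05. Errors of differences are standard errors of this fit, and the number of arrays limits the precision. Of these steps, only the limma fit was run on simulated data, with independent noise and known shifts. That checked the code and cannot speak to slide, pairing or the kind of replicate. "At least" sets the brighter group's mean against, per dim array, the dimmest probe that was well above background, or the probe's own value where higher.

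The members and the 8 gene lists were chosen with earlier results of these data known. Genes named were up to 6 per list, by smallest adjusted p past the threshold, 23 fixed by name, the 4 neighbours on either side of Spic and the 8 nearest profiles. Tmem255a, Slc6a14 and Plxna4, named beside the rank of Spic, Csf3r and Siglech, named as the brightest probes of their lists, and list members named as dim fall outside this rule and were chosen after their values were seen. Alternatives covered background correction, scaling, filters, probes of a gene, slide, variance moderation, threshold and each array left out. For normexp, the design had foreseen the mean signal, and the median signal in the files was used. An offset of 50 was added to the corrected signal, which by itself draws log2 differences of dim probes toward zero. The share of the offset in the smaller differences with normexp was not tested. Some listed genes are not reported here, in text or figures, and stay in the counts.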

Additional observations from a re-analysis of the deposited data

How the results depend on the processing

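Of 31 named genes past the threshold, 14 kept their direction and their call under each of the 16 alternatives, and the rest lost the call under at least 1. Of 19 named genes not past it, 3 passed under at least 1. No result changed direction with its call. Spic ran from 1.87, with normexp correction, to 2.21, and without 1 array from 2.12 to 2.21. Spib ran from 0.07 to 0.22, and Spi1 gave no value. The count of changed features was 3245, but 2093 with no filter on dim probes, 1222 at an adjusted p under 0.01 and 1456 to 2925 without 1 array (1616, 1456 and 1551 when DMSO replicate 1, 2 or 3 was left out, 2161 when SB431542 replicate 2 was). The other Ets list had 3 calls in place of 5 with normexp, with no filter or with trend and robust moderation, and 2 to 4 without 1 array. The partner list had 2 calls with no filter, 3 with slide as a block and 1 to 4 without 1 array. The one-carbon list had 10 with trend and robust moderation and 2 to 6 without 1 array. The haem and iron list had 2 with no filter, 2 with slide as a block and 2 to 3 without 1 array. The B cell list had 1 with no filter and 1 to 2 without 1 array. Deviations of same-numbered arrays of the groups correlated at 0.002, 0.07 and -0.06, and those of differently numbered arrays at -0.08 to 0.07. With 3 arrays per group this cannot decide whether the numbers pair the arrays, and the labels state no pairing. With the replicate number as a block, Spic was 2.17, 1565 features changed, and the Ets, partner, one-carbon, haem and B cell lists had 2, 3, 3, 2 and 1 calls. The cause of these shifts was not tested. Slide as a block is the same fit as leaving out SB431542 replicate 3. Signal near background limits Spi1, Bhmt2, Dmgdh and part of the blood cell markers.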
